A study of Homo sapiens with 6 samples.

Results

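The BCL2 family decides whether a cell's mitochondria release the factors that start apoptosis. The genes followed here are BCL2, BCL2L1, MCL1, BCL2A1, BAX, BAK1, BID, BBC3, PMAIP1 and BCL2L11, and every probe set that the platform annotation gives to 1 of them alone was taken. The rule found 30 of the 54675 probe sets deposited, and they cover 9 of the 10 genes. BBC3, which encodes the killer protein PUMA, had no such probe set and was not analysed here. Of the 30 probe sets, 29 reached the median of all deposited values (3.66, log2) on at least 1 array and entered the tests. The other, 208536_s_at of BCL2L11, lay between 3.02 and 3.504 on the 6 arrays.

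Expression came from NB4, a human acute promyelocytic leukaemia line with the PML-RARA fusion, on 6 Affymetrix arrays. All-trans retinoic acid (ATRA), which binds retinoic acid receptors and drives these cells toward neutrophils, was given at 1e-06 M. The groups were untreated cells (0 h) and cells after 4, 12, 24, 48 and 72 h of ATRA. Each time has 1 array and hence no replicate. The length of ATRA exposure and the length of culture cannot be told apart.

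The family is read here by role. Guardians such as BCL2, BCL-XL (from BCL2L1), MCL1 and A1 (from BCL2A1) hold the killers in check. BAX and BAK1 form the pores in the outer mitochondrial membrane. The BH3-only proteins BID, NOXA (from PMAIP1), BIM (from BCL2L11) and PUMA sense stress and either block guardians or activate the pore formers. Neutrophils are short-lived cells, and A1 and MCL1 are the guardians best known from them.

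Untreated cells carried the promyelocyte markers MPO (12.90, log2), PRTN3 (10.76), ANPEP (10.02), AZU1 (9.32), CEBPE (8.19) and CTSG (6.83), while ELANE stayed below 3.66 on every array. The mean of the 7 measured promyelocyte markers went from 8.70 at 0 h to 7.93 at 72 h, with members in both directions. CEBPE rose (2.49 at 72 h), ANPEP (-3.56), CTSG (-2.42) and MPO (-1.98) fell, and PRTN3 differed by 0.31 without a call. All 6 measured monocyte markers, CD14 among them, lay below 3.66 on all arrays, with list means of 2.80 to 2.96. List means were 4.63 to 5.00 for B cell, 4.53 to 4.74 for T and NK cell, and 4.12 to 4.33 for erythroid and megakaryocyte markers. Within these lists CD79A (5.36 to 6.82 from 0 to 72 h) and GNLY (3.15 to 4.12) rose, CD79B (6.04 to 4.65) fell, and NKG7 read 8.35 to 9.11 without a call. MS4A1 and CD8A were below 3.66 on all arrays. Array medians were 3.64 to 3.69. The 3' minus 5' difference of the ACTB control was 0.13 to 0.26 and that of GAPDH 0.02 to 0.21. One spiked control, bioC, was brighter at 0 and 12 h (mean 8.06) than at the other 4 times (mean 7.04). The other spiked controls (bioB, bioD and cre, 14 probe sets) split the same arrays the other way. Their means were 9.10 and 9.18 at 0 and 12 h and 9.46 to 9.67 at the other times.

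Across the family, a BCL2 probe set dropped early, BCL2A1 climbed early, and MCL1 and several killers were highest at 72 h. BCL2A1, MCL1, BAK1 and BCL2L11 had probe sets that rose over the 6 arrays, and BCL2 had 1 that fell. A trend is the slope of a straight line through the arrays in time order (0 to 5), tested with limma. A call means an adjusted p (Benjamini-Hochberg) below 0.05 over all 25189 probe sets fitted. The SE and p reflect scatter about the line, where curvature and array error mix, and no spread between replicate cultures. By this test 9 of the 29 probe sets rose, where 7.47% of all probe sets did, and 1 fell, where 9.68% of all did. Of the rising probe sets, 5 belong to MCL1 and 2 to BCL2L11. With 1 probe set per gene, 4 of the 9 genes rose, where 8.02% of all genes did. At an unadjusted p under 0.05 there were 13 member probe sets in either direction. The number of probe sets rising was 3 without the 72 h array, 5 without the untreated array and 5 with the bioC level as a covariate. The number falling was 1 in each of these fits. Within the 4, 24, 48 and 72 h arrays, where bioC lay between 6.88 and 7.17, 205681_at of BCL2A1, 214056_at of MCL1, 1555372_at of BCL2L11 and 203685_at of BCL2 were called (limma adjusted p = 0.0351, 0.0440, 0.0352 and 0.0427). In that fit of 4 arrays the other 6 called probe sets kept their direction and lost the call (limma adjusted p of 0.0517 to 0.180).

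Counted against the untreated array, probe sets 2-fold or more higher numbered 3 (4 h; 1.84% of all probe sets), 1 (12 h; 2.16%), 4 (24 h; 3.15%), 5 (48 h; 5.58%) and 12 (72 h; 10.8%). These 12 belong to 6 genes: MCL1, BCL2A1, BAK1, BID, PMAIP1 and BCL2L11. One probe set, 203685_at of BCL2, was 2-fold or more lower at all 5 times, where 2.55%, 1.92%, 2.63%, 4.93% and 12.8% of all probe sets were. The members' median difference was 0.14, -0.02, 0.26, 0.42 and 0.64 at the 5 times, beside 0.01, -0.06, -0.03, -0.04 and -0.08 for all probe sets fitted. Equalising the arrays on all spiked controls adds 0.71, -0.15, 0.83, 0.9996 and 0.66 to every difference, and on the controls without bioC it adds -0.41, -0.08, -0.48, -0.36 and -0.56. Every shift is smaller than a 2-fold difference, so none could turn the sign of a difference of 2-fold or more. At 72 h they turned 7 and 5 smaller ones. Both sets of controls carry the split of the 0 and 12 h arrays from the others. Differences below are relative to the arrays' common level.

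**Figure D1:**
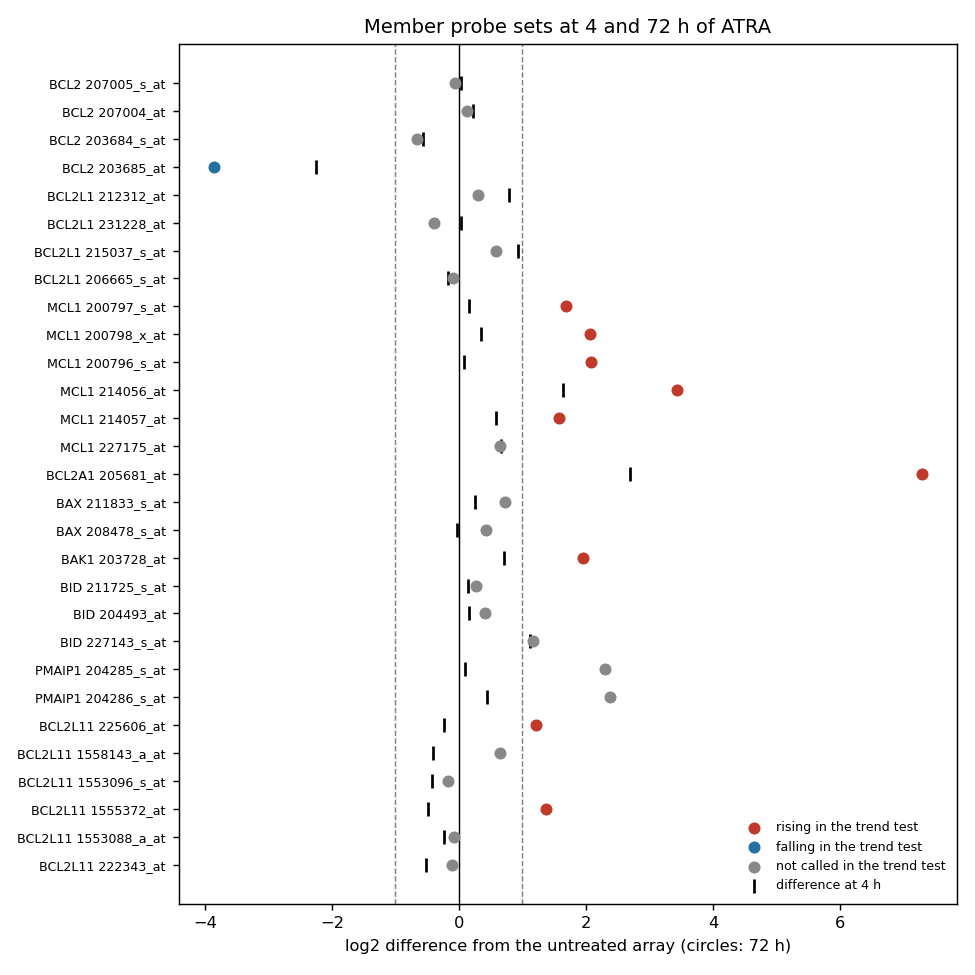
Log2 difference from the untreated array (horizontal axis) of the 29 probe sets in the tests (rows), with circles for 72 h coloured by the trend call, black ticks for 4 h and dashed lines at 2-fold. BCL2A1 stands at 7.29 on the right and 203685_at of BCL2 at -3.86 on the left, and the other members lie between -0.66 and 3.43 at 72 h.

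BCL2A1 encodes A1, a guardian of blood cells whose gene is a well-known target of NF-kappaB. Its single probe set, 205681_at, read 4.30 in untreated cells and then 6.997, 9.38, 10.33, 10.96 and 11.59 on the log2 scale at 4, 12, 24, 48 and 72 h. Each array was higher than the one before it, with the steepest steps in the first 12 h. Relative to untreated cells the level was higher by 6.49-fold, 34.0-fold, 65.3-fold, 101-fold and 156-fold in turn. The gene rose by 1.41 ± 0.17 per step on the log2 scale (± SE; limma adjusted p = 0.00325). The call held in all 6 fits that left out 1 array, where slopes were 1.08 to 1.67, and with the bioC covariate (limma adjusted p = 0.0207). Among the 25189 probe sets its difference had rank 25 from the highest at 4 h, then 7, 8, 9 and 31.

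The 250 bases before the start of BCL2A1 are shown because this gene has the largest rise of the family. They are taken from RefSeq on build GRCh38.p14, chr15:79971197-79971446, minus strand, upstream of the gene and in no exon of it, and capitals mark motif matches.
BCL2A1: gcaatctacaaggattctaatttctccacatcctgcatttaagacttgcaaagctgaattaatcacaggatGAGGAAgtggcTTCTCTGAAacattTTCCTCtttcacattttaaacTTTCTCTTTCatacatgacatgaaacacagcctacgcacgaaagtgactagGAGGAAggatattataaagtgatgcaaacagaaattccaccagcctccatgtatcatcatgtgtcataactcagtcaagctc
Searched on both strands were 10 motifs: the NF-kappaB consensus, the interferon-stimulated response element, the STAT-type site TTCNNNGAA, retinoid direct repeats with spacers of 5 and 2 bases, the p53 half-site, the C/EBP core TTNNGNAA, the PU.1 core GAGGAA, the E-box CACGTG and the cAMP element TGACGTCA. The BCL2A1 window holds the PU.1 core at 3 places, which start 179, 154 and 82 bases before the gene. It also holds 1 match to TTCNNNGAA, 168 bases before the start, and 1 to the interferon-stimulated element, 133 bases before it. Among all 35116 promoter windows of this length, 23.6% hold the PU.1 core, 6.57% TTCNNNGAA and 3.02% the interferon-stimulated element. No match overlaps another. They are descriptions of letters, not sites of binding.

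BCL2, the founding guardian of the family, had 4 probe sets that did not move alike. Probe set 203685_at read 6.05 in untreated cells and then 3.79, 3.43, 2.997, 2.49 and 2.19. Most of the loss lay in the first 4 h, and every later array was lower than the one before it. The signal was 4.77-fold lower at 4 h. From 12 h on it was under 3.66, so with that end set to 3.66 it was at least 5.23-fold lower. It fell by 0.67 ± 0.11 per step on the log2 scale (± SE; limma adjusted p = 0.00961), and it was called in all 6 fits that left out 1 array (slopes of -0.79 to -0.41) and with the bioC covariate (limma adjusted p = 0.0429). Slopes use the values as deposited. Without the untreated array the slope thus rests on 3.79 at 4 h and on values under 3.66, so a fall after 4 h is not well measured.

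The other BCL2 probe sets were dimmer at the start and were not called. Probe set 203684_s_at read 4.24, 3.68, 4.15, 3.89, 3.71 and 3.58 from 0 to 72 h, a difference of -0.66 at 72 h, where it was below 3.66. Probe set 207005_s_at lay between 4.60 and 4.81 and 207004_at between 4.03 and 4.44, with differences of -0.07 and 0.12 at 72 h. The control shifts can turn the signs of all 3. In the platform annotation, 203685_at points to the RefSeq transcript of the alpha form of BCL2, the membrane-anchored one, and 207004_at and 207005_s_at to that of the shorter beta form. No form is given here for 203684_s_at, and whether the forms differ was not tested. The fall thus rests on 1 of 4 probe sets, and it is lost where each gene is read by its brightest probe set, 207005_s_at. In bulk RNA, fewer cells with a transcript and less of it per cell cannot be told apart.

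**Figure D2:**
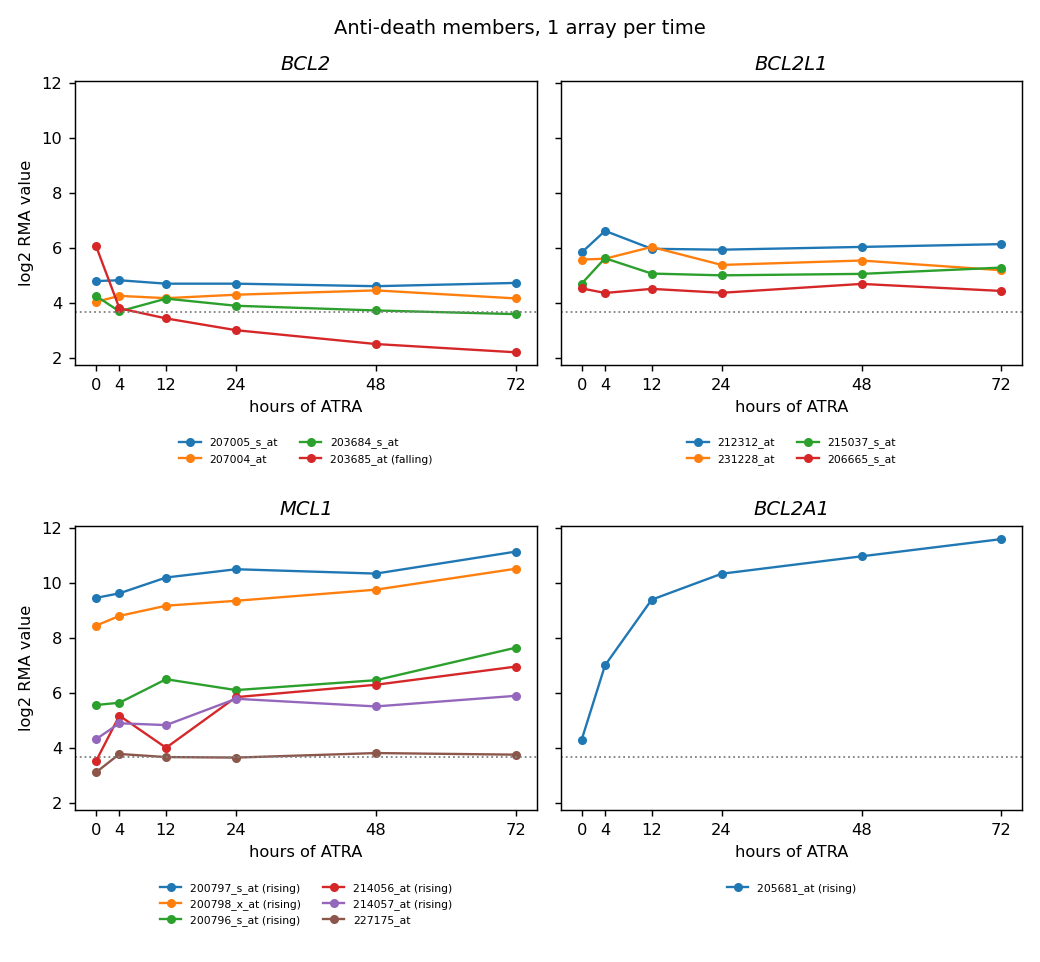
Log2 RMA value (vertical axis) against hours of ATRA (horizontal axis) for each probe set of the 4 guardian genes, 1 array per time, with the low-value level of 3.66 dotted. BCL2A1 climbs from 4.30 to 11.59, 5 of the 6 MCL1 probe sets climb, 203685_at of BCL2 drops from 6.05 to 2.19, and BCL2L1 stays between 4.35 and 6.61.

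MCL1, a guardian with a short-lived protein and mRNA, rose in 5 of its 6 probe sets. The brightest, 200797_s_at, read 9.45, 9.62, 10.19, 10.49, 10.33 and 11.13 from 0 to 72 h, and 200798_x_at read 8.44, 8.79, 9.16, 9.34, 9.75 and 10.51. Both were highest at 72 h, at 3.21-fold and 4.19-fold the untreated level. They rose by 0.31 ± 0.05 and 0.38 ± 0.05 per step on the log2 scale (± SE; limma adjusted p = 0.00712 and 0.00298), and both stayed called in all 6 fits that left out 1 array. The suffix x marks a probe set prone to cross-hybridisation.

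The dimmer MCL1 probe sets were less even. Probe set 200796_s_at read 5.55, 5.64, 6.49, 6.10, 6.46 and 7.64, with its largest step (1.18) between 48 and 72 h. Probe set 214056_at read 3.52, 5.17, 4.00, 5.84, 6.29 and 6.95, so it was low on the 0 and 12 h arrays (mean 3.76) and higher on the other 4 (mean 6.06), the split that bioC shows in reverse. With bioC as a covariate, 214056_at and 200796_s_at kept their calls (limma adjusted p = 0.0195 and 0.0220) and 214057_at lost its call (0.0531). Probe set 214057_at went from 4.31 to 5.89. These 3 rose by 0.36 ± 0.08, 0.64 ± 0.12 and 0.30 ± 0.06 per step (limma adjusted p = 0.0226, 0.0127 and 0.0148). Each lost its call without the 72 h array (limma adjusted p = 0.178, 0.0783 and 0.0732) and without the untreated array (0.0685, 0.0684 and 0.0826), and 200796_s_at also without the 4 h array (0.0548). Probe set 227175_at stayed between 3.11 and 3.81 with no call.

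BCL2L1, which encodes BCL-XL and its short death-promoting form, had no call in 4 probe sets. The 2 with the largest differences from untreated had them at 4 h: 212312_at read 5.82 at 0 h, 6.61 at 4 h and 5.92 to 6.13 later, and 215037_s_at read 4.69, then 5.61, then 4.99 to 5.27. Both were highest on the 4 h array, at 1.72-fold and 1.90-fold the untreated level, short of 2-fold. Probe set 231228_at lay between 5.18 and 6.02 and 206665_s_at between 4.35 and 4.68. Their differences at 72 h were 0.30, 0.58, -0.39 and -0.09 in that listing order. The control shifts turn the sign of each but the second.

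The 2 pore formers differed in size of change. BAK1 (203728_at) read 5.68 untreated, then 6.39, 5.94, 6.25, 6.80 and 7.64. The 72 h array was highest, 3.88-fold above untreated, and the 0 and 12 h arrays were lowest. BAK1 rose by 0.32 ± 0.08 per step on the log2 scale (± SE; limma adjusted p = 0.0271). The call was lost without the 72 h array (limma adjusted p = 0.221), the 48 h array (0.0536), the untreated array (0.0976) and with the bioC covariate (0.0965). BAX, the pore former that moves from the cytosol to mitochondria, read 6.38, 6.63, 6.31, 6.66, 6.82 and 7.10 in 211833_s_at and 6.50, 6.46, 6.40, 6.77, 6.72 and 6.93 in 208478_s_at. Both probe sets were highest at 72 h, by 0.72 and 0.43, and neither was called (limma adjusted p = 0.122 and 0.197). The second of these differences turns negative with the shift on controls without bioC. Whether the slopes of BAK1 and BAX differ was not tested.

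The BAK1 promoter window (RefSeq, GRCh38.p14, chr6:33580277-33580526, minus strand, upstream of the gene) is shown as the pore former with a call, with matches in capitals.
BAK1: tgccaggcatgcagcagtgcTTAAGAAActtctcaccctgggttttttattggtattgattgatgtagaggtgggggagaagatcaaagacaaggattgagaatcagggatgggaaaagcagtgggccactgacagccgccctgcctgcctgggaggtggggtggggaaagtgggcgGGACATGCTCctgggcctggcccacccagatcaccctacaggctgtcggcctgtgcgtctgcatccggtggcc
It holds 1 match to the p53 half-site, 73 bases before the start, a motif found in 5.57% of all windows, and 1 to the C/EBP core, 230 bases before it, found in 33.2%. The BAX window holds the E-box at 4 places, and 6.34% of all windows hold it at least at 1.

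**Figure D3:**
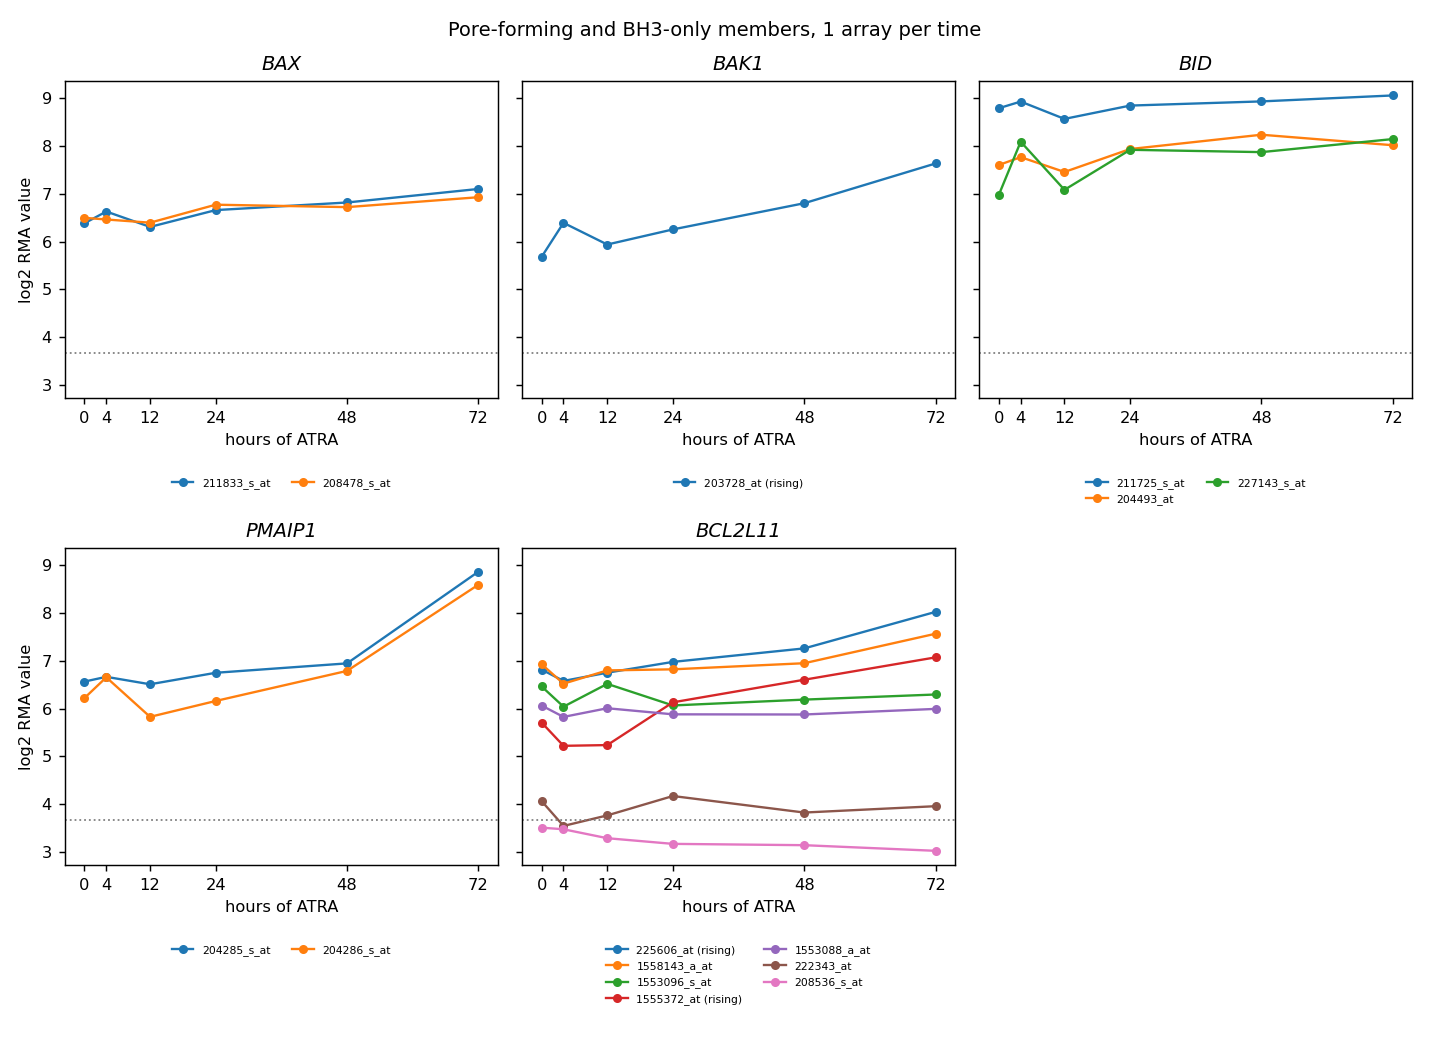
Log2 RMA value (vertical axis) against hours of ATRA (horizontal axis) for each probe set of the pore formers and BH3-only genes, 1 array per time, with the low-value level of 3.66 dotted. Both PMAIP1 probe sets stay under 7 until 48 h and reach 8.87 and 8.59 at 72 h, and the BCL2L11 probe sets spread apart.

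PMAIP1, which encodes NOXA, a BH3-only protein that binds MCL1 and A1, was high at 72 h alone. Probe set 204285_s_at read 6.57, 6.67, 6.51, 6.75 and 6.95 from 0 to 48 h and 8.87 at 72 h. Probe set 204286_s_at read 6.22, 6.65, 5.83, 6.16 and 6.79, then 8.59. In both, the 72 h array stood above the other 5, at 4.93-fold and 5.19-fold the untreated level. The last step, from 48 to 72 h, was 1.92 and 1.81, and with 200796_s_at of MCL1 these were the 3 members 2-fold or more higher over that step (4.71% of all probe sets). A straight line over time order was not called (limma adjusted p = 0.0788 and 0.122), but with hours in place of order both were (0.0136 and 0.0215). Without the 72 h array the slopes were 0.08 and 0.06, so the late level rests on that 1 array.

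The window before PMAIP1 (RefSeq, GRCh38.p14, chr18:59899746-59899995, plus strand, upstream of the gene) is given for the member with the late step, and no motif of the 10 matched it.
PMAIP1: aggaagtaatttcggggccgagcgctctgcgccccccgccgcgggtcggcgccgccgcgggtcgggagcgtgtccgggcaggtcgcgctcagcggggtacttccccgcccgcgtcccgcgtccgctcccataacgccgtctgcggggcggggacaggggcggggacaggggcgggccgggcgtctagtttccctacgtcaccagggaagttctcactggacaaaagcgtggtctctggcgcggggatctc
Its share of G and C is 72.8%, that of the BCL2A1 window 38.8% and that of the BAK1 window 58.0%. Promoter windows were found for 9 of the 10 genes, BBC3 among them. MCL1 had none, so it was not searched.

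BCL2L11 encodes BIM, a BH3-only protein that can bind every guardian, and its 7 probe sets spread apart. Probe set 225606_at read 6.82, 6.58, 6.75, 6.98, 7.26 and 8.03 from 0 to 72 h, and 1555372_at read 5.71, 5.22, 5.23, 6.13, 6.60 and 7.07. Both were lower at 4 and 12 h than at 0 h and highest at 72 h, at 2.31-fold and 2.58-fold the untreated level. They rose by 0.24 ± 0.07 and 0.34 ± 0.09 per step on the log2 scale (± SE; limma adjusted p = 0.0453 and 0.0320). Neither call held without the 72 h array (limma adjusted p = 0.366 and 0.227), the 48 h array (0.0729 and 0.0750), the 4 h array (0.0957 and 0.0760) or with the bioC covariate (0.0767 and 0.0970). The call of 225606_at was also lost without the 12 h array (0.0730) and the 24 h array (0.0561), with no low-value filter (0.0587), and with the shifts on all controls (0.0869) and without bioC (0.159). It held in 7 of 17 alternative fits. The call of 1555372_at was also lost with the shift without bioC (limma adjusted p = 0.0568).

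Probe set 1558143_a_at of BCL2L11 reached 7.57 at 72 h from 6.93 without a call (limma adjusted p = 0.200). The 3 others in the fit differed by -0.17 (1553096_s_at), -0.07 (1553088_a_at) and -0.11 (222343_at) at 72 h. All 6 read lower at 4 h than at 0 h, by -0.52 to -0.24, a range that the shift on all controls would turn positive.

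BID, a BH3-only protein that caspase-8 cuts into its active form, had no called probe set. Probe set 211725_s_at read 8.79, 8.93, 8.57, 8.85, 8.94 and 9.06, and 204493_at read 7.60, 7.77, 7.46, 7.94, 8.24 and 8.02. Neither was called (limma adjusted p = 0.549 and 0.194). Probe set 227143_s_at read 6.98, 8.09, 7.08, 7.92, 7.87 and 8.15, near 7.03 on the 0 and 12 h arrays and near 8.01 on the other 4. This is again the split of the bioC arrays. Its slope went from 0.17 to 0.04 with the bioC covariate, and it was called in neither fit (limma adjusted p = 0.212 and 0.700). Without the 4 h array it was called (limma adjusted p = 0.044).

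The genes closest in course to BCL2A1 were taken as those with the smallest root mean square distance between log2 differences from untreated over the 5 ATRA times, among 13593 other genes. They were PADI4, which citrullinates histones (distance 0.36), the NADPH oxidase subunit NCF1 (0.54), the neutrophil calcium-binding protein S100A9 (0.55), the leukotriene-inactivating enzyme CYP4F3 (0.76) and the kinase FGR (0.83). At 72 h they were higher by 7.30, 7.10, 7.45, 7.04 and 6.99. PADI4 and CYP4F3 started below 3.66, at 3.28 and 2.17, so all their differences and distances rest on an untreated value below that level. NCF1 has near-identical pseudogenes that share its probes.

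For 203685_at of BCL2 the nearest were the transcription factors EBF3 (distance 0.42), ZBTB16 (0.45) and IRX3 (0.64), the histamine-forming enzyme HDC (0.50) and the T cell receptor segment TRDV3 (0.67). Their differences at 4 h, in that order, were -2.36, -2.20, -2.14, -1.27 and -1.37. EBF3 was under 3.66 at 72 h, ZBTB16 from 24 h on and 203685_at from 12 h on, so these distances rest partly on low signal. Distances over 5 differences that share the untreated array are descriptions.

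**Figure D4:**
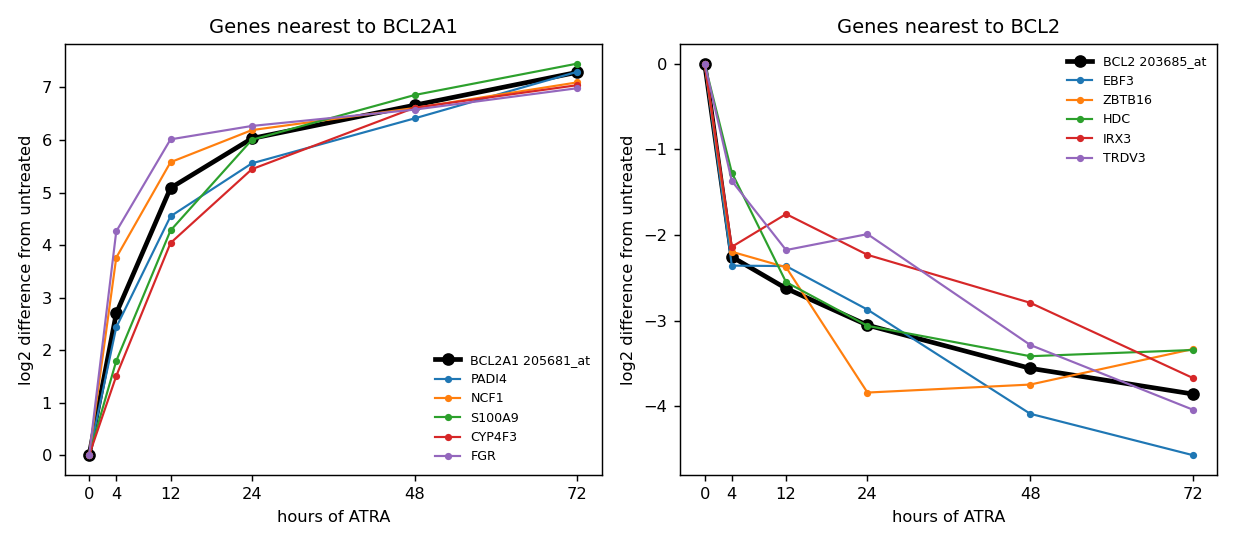
Log2 difference from untreated (vertical axis) against hours of ATRA (horizontal axis) for BCL2A1 and its 5 nearest genes (left) and for 203685_at of BCL2 and its 5 nearest genes (right), 1 array per time. The left curves end between 6.99 and 7.45 and the right curves between -4.57 and -3.33.

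The wider pathway was read with 1 probe set per gene, the brightest, where 8.02% of 13594 genes rose and 9.53% fell and the median 72 h difference was -0.06. Of 17 other genes listed with the BCL2 family, by relation or by name, none rose and 1 fell, with a list median of 0.03. The falling gene was BCLAF1, a splicing-linked factor rather than a family member (-0.80 at 72 h, limma adjusted p = 0.0313). The BH3-only gene BIK differed by 1.90 (4 h) and 1.80 (72 h), uncalled (limma adjusted p = 0.128), from 4.16. The guardian BCL2L10 differed by -1.94 at 72 h, also without a call (limma adjusted p = 0.0902). BIK and BCL2L10 were picked after their values were seen. The count of falling genes was 0 without the untreated, 4, 12, 48 or 72 h array and 2 without the 24 h array, and 1 rose without the 4 h array.

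Of 15 measured genes of the mitochondrial death pathway, 1 rose and 4 fell, and the list median at 72 h was -0.42. The list pools death-promoting proteins with inhibitors of apoptosis such as BIRC2 and XIAP, so its median gives no direction for the pathway. BIRC2, an inhibitor of apoptosis protein, rose (1.24 at 72 h, limma adjusted p = 0.0196). HTRA2, a mitochondrial protease (-1.46), the nuclease ENDOG (-1.45), the survivin gene BIRC5, which also acts in mitosis (-1.42), and the membrane channel VDAC2 (-0.89) fell (limma adjusted p = 0.0264, 0.0451, 0.0456 and 0.0276). The falling count was 1 without the untreated, 4 or 12 h array and 0 without the 72 h array. The rising count was 0 without the untreated or 72 h array and 3 without the 4 h array. CYCS, the cytochrome c released through the pores, read 12.01 in untreated cells and differed by -0.42 at 72 h without a call. CASP9 (1.52), XIAP (1.32) and VDAC3 (-1.06) were also uncalled at 72 h differences of 2-fold or more. These genes were picked after their values were seen.

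Among 17 regulators of the family, PIM1, a kinase that inactivates the killer BAD, rose by 1.90 at 72 h (limma adjusted p = 0.00516) and BTRC, a ubiquitin ligase subunit, fell (-0.87, limma adjusted p = 0.0437). The rising count was 1 in all 6 fits without 1 array, and the falling count was 0 without the untreated, 4, 48 or 72 h array and 2 without the 24 h array. Of 18 measured p53 target genes, 17 reached 3.66; none of these rose and AEN, a nuclease, fell (-1.44, limma adjusted p = 0.0211), with a list median of -0.03. The falling count was 0 without the 72 h array, and 1 gene rose without the untreated array and 1 without the 4 h array. CDKN1A differed by 0.73 and MDM2 by 0.14 at 72 h, with no call. Larger uncalled differences at 72 h were those of PLK3 (1.76), FAS (1.32), GADD45A (1.25) and SESN2 (1.17), picked after their values were seen. At 72 h AEN alone in the list was 2-fold or more lower. FAS had differed by -1.69 at 4 h, where it read 3.38, below 3.66.

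Of 15 measured NF-kappaB response genes, 3 rose and none fell, and the list median was 0.91 at 72 h against 0.11, -0.17, 0.06 and 0.33 at 4, 12, 24 and 48 h. The adhesion receptor ICAM1 (6.04), the chemokine CXCL8 (3.77) and the NF-kappaB subunit REL (2.03) rose (limma adjusted p = 0.00587, 0.00581 and 0.0250). NFKBIA, the inhibitor that NF-kappaB induces, differed by 0.51, -0.73, 0.49, 1.13 and 1.74 at the 5 times without a call. TNF differed by -2.30 at 4 h and -2.28 at 72 h, uncalled. The rising count was 2 to 4 without 1 array, and 1 gene fell without the 4 h array. At 12 h ICAM1 differed by 4.02 and CXCL8 by 1.03, while TNF differed by -1.58 and the list median was -0.17.

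**Figure D5:**
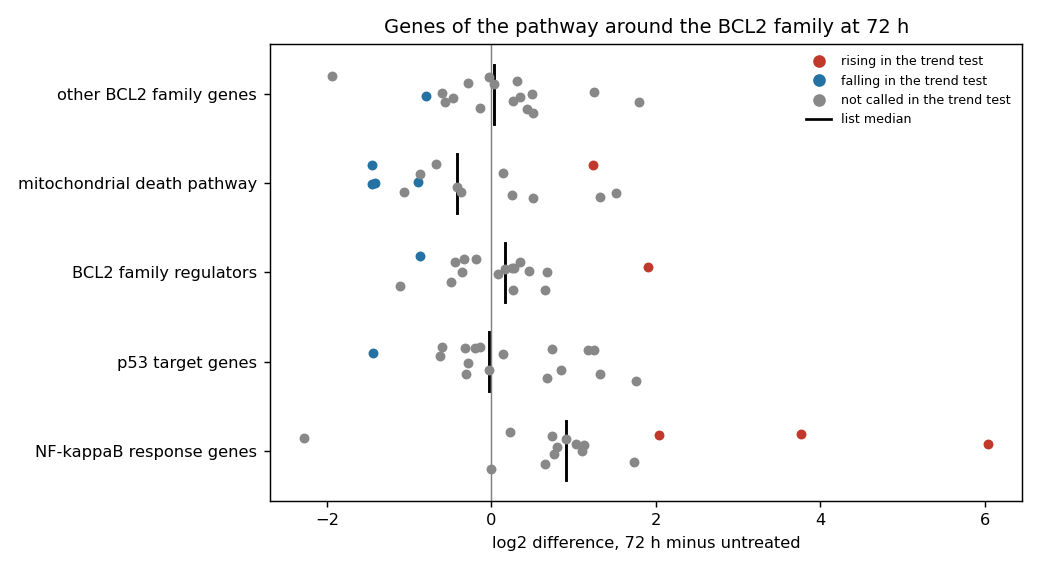
Log2 difference at 72 h from untreated (horizontal axis) of each fitted gene in 5 lists around the BCL2 family (rows), 1 brightest probe set per gene, coloured by the trend call, with list medians as black bars and random vertical scatter. The NF-kappaB response list has the highest median (0.91). The mitochondrial death pathway list, which pools death-promoting proteins with inhibitors of apoptosis, has the lowest (-0.42).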

How the data were processed

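RNA of NB4 cells was hybridised to 6 Affymetrix arrays, and each was placed by the time its label gives. The authors deposited values on a log2 scale, made with RMA per the submitters' processing notes. The RMA version is not given in the sources used here. Since RMA equalises array distributions, a change common to most transcripts cannot be seen. Precision is limited by having 6 arrays.

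The platform annotation names 1 gene for 41097 of 54675 probe sets, several for 1801 and none for 11777. The array has 62 control probe sets. Leaving these out, 41091 with 1 gene were analysed, and 41037 of them took their symbol from RefSeq by matching Entrez identifiers. The 25189 with a value of at least 3.66 were fitted. The slope over time order (0 to 5) was tested by lmFit and eBayes (trend = TRUE) of limma 3.58.1 under R 4.3.3, with Benjamini-Hochberg adjustment. On simulated data of 25189 probe sets this fit found 45 of 100 slopes of 0.3 and 93 of 100 slopes of 0.6, with 7 false calls. The simulated noise was independent between probe sets. It holds no effect shared by a whole array, so the false calls that such effects could bring are not counted. Differences from the untreated array have no replicate and no p-value. Where 1 end of a fold lies below 3.66, that end is set to 3.66 and the fold is a lower bound.

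The members and gene lists were chosen with earlier results of these data known. All member probe sets are named, with the 5 nearest genes of the largest rise and fall (for BCL2 those of 203685_at, while other genes are read by their probe set with the highest mean), and up to 4 called genes per list by 72 h difference. CYCS, CDKN1A, MDM2, NFKBIA and TNF, added for their roles, and genes marked so in the text were picked outside that rule. Promoter windows come from RefSeq, build GRCh38.p14, used for no probe set position. Other settings tried were cyclic loess, 2 shifts on spiked controls, filters, fold thresholds, baselines, time in hours, a bioC covariate and leaving out arrays.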

Additional observations from a re-analysis of the deposited data

How the results depend on the processing

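Slopes of the 10 called member probe sets kept their direction in all refits with other settings, of which 130 kept the call and 33 lost it. The number rising (9) was 3 to 8 without 1 array, 5 with the bioC covariate, 3 within the 4, 24, 48 and 72 h arrays and 4 with 1 probe set per gene. The number falling (1) was 1 without any 1 array, and 0 with 1 probe set per gene or a filter at percentile 75. The first reads BCL2 through 207005_s_at, and under the second 203685_at had a limma adjusted p of 0.0671. Members 2-fold or more higher at 4 h (3) were 10 with the shift on all hybridisation controls and 7 at a 1.5-fold threshold. Those higher at 12 h (1) were 2 with cyclic loess and 4 at 1.5-fold, and those lower at 12 h (1) were 2 against the 4 h array. Those higher at 24 h (4) were 16 and 2 with the shifts on all controls and without bioC, 1 against the 4 h array and 2 at 3-fold, while 0 were lower at 24 h against the 4 h array. Those higher at 48 h (5) were 22 and 2 with these shifts, 3 against the 4 h array, 11 at 1.5-fold and 2 at 3-fold. Those lower at 72 h (1) were 2 with the shift without bioC and 2 at 1.5-fold. Members higher at 72 h (12) were 9 to 18 under the 3 other scalings.

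Refits of the pathway lists without each array and with the bioC covariate were chosen after seeing the data. Without 1 array, rising and falling counts were 0 to 1 and 0 to 2 for other genes listed with the BCL2 family. They were 0 to 3 and 0 to 3 for the mitochondrial death pathway, and 1 and 0 to 2 for regulators. They were 0 to 1 and 0 to 1 for p53 targets, and 2 to 4 and 0 to 1 for NF-kappaB response genes. With the bioC covariate 0 mitochondrial genes rose and 0 regulators fell. With the mean of all kept probe sets 0 other genes listed with the family fell. Scalings of the step from 48 to 72 h, also added after seeing the data, left 2 to 4 members higher. The causes of these changes were not tested. Samples had 1 label-given time each, so no paired analysis was possible because no group has a second replicate. Values below 3.66 limit 203685_at (from 12 h) and 203684_s_at (72 h) of BCL2, 214056_at (0 h) and 227175_at (0 and 24 h, and at that level at 12 h) of MCL1, and 222343_at (4 h) and 208536_s_at (all arrays) of BCL2L11.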
